A study of Oryza coarctata with 5 samples.

Results

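Submergence in 450 mM NaCl was compared with a water control in the wild rice relative *Oryza coarctata* (*Porteresia*), 1 RNA-sequencing library each. Transcripts entered the comparison if they reached an RPKM (read number relative to transcript length and library size) of at least 1 in either of these libraries and stood above 0 in all 5 libraries of the series, which left 70833 of the 152367 assembled transcripts listed. The samples were mature plants taken from natural conditions and then kept submerged in 450 mM NaCl (the label Salt450+Submerged), submerged in water (Submerged), in 450 mM NaCl (Salt450), in 700 mM NaCl (Salt700) or in water (Control). Each treatment had 1 library, so no test was run, no p-value is given and variation among plants kept alike was not measured. How long the treatments lasted, which organs were used and how many plants went into a library was not stated in the sources available.

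*Oryza coarctata* grows on tidal mudflats and river mouths of South Asia, where salt water covers it at high tide. Its leaves carry salt hairs that secrete salt, and it tolerates salinity that kills cultivated rice. Flooding slows gas exchange and lowers oxygen and light, to which rice and other plants are known to respond by fermentation and altered growth, while salt brings osmotic stress and sodium toxicity. Submergence in salt water is the treatment closest to the tidal habitat of the species. The deposited transcripts carry assembly numbers without gene names, so neither the role of a transcript nor the marker genes of the labelled tissue could be given, and the results describe transcripts by number, level and pattern.

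The libraries rested on 74867541 reads for submergence in 450 mM NaCl, 78997383 for submergence in water, 59818916 for 450 mM NaCl, 58431827 for 700 mM NaCl and 56638113 for the water control, read totals that follow from the steps between RPKM values. Of the 72288 transcripts at RPKM 1 or more in either library compared, 1455 were at 0 in at least 1 of the 5 libraries and were not used. Among them 992 were at 0 at 700 mM NaCl, 570 in submergence in water, 470 at 450 mM NaCl, 410 in submergence in 450 mM NaCl and 47 in the water control. The 70833 transcripts used held 95.9% of the summed RPKM in submergence in salt and 95.5% in the control. At the edge of the filter, Pc_TC088169 was used with 1.000057 RPKM in submergence in salt and 0.995977 in the control, and Pc_TC113945 was left out with 0.999984 and 0.188834.

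Most transcripts stood at a like level in plants submerged in salt and in control plants. The log2 ratio between submergence in salt and control (submergence in salt on top), taken after adding 0.5 to both RPKM values, had a median of 0.02 and an interquartile range of -0.35 to 0.34, and 90.4% of the transcripts lay within 2-fold. At least 2-fold higher were 2472 transcripts (3.49% of those compared) and at least 2-fold lower were 4295 (6.06%). At 4-fold or more the counts were 96 higher (0.136%) and 439 lower (0.620%), and at 8-fold or more 3 higher (0.00424%) and 62 lower (0.0875%). The lower side thus reached further: the ratios ran from -4.68 to 3.80, with a 1st percentile of -1.80 and a 99th percentile of 1.37. The limit of 2-fold fell between Pc_TC025481 (1.91 RPKM in submergence in salt and 0.71 in control, counted as higher) and Pc_TC012140 (17.0 and 8.27, not counted). On the other side it fell between Pc_TC136243 (0.30 and 1.095, counted as lower) and Pc_TC052767 (2.35 and 5.19, not counted).

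For each of the 2472 higher and 4295 lower transcripts, the exact 95% interval of the ratio of reads excluded a ratio of 1. Such an interval reflects counting alone and says nothing of variation among plants, and reads are not independent molecules. That every interval excluded 1 was largely fixed in advance by the filter at RPKM 1, the 0.5 added and the 2-fold limit. The outcome therefore adds no support to the calls. The counts depend on the value added to RPKM: with 0.1 in place of 0.5 there were 4327 higher and 6584 lower transcripts at 2-fold and 473 and 1374 at 4-fold, and with 1 there were 1233 and 2571 at 2-fold and 50 and 255 at 4-fold. Without the requirement of RPKM above 0 in all 5 libraries, which leaves out 410 transcripts at 0 in submergence in salt and 47 at 0 in the control, 732 were lower at 4-fold. A whole-plant or tissue library also cannot tell fewer cells of a type from less RNA per cell.

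**Figure D1:**
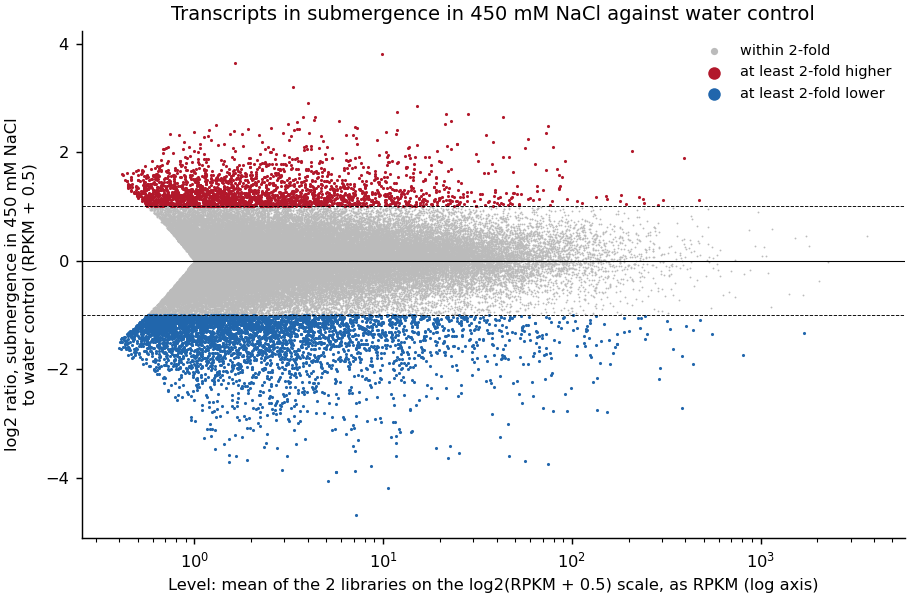
Each point is 1 of the 70833 transcripts, with its level in RPKM across (log axis, mean of both libraries on the log2 scale) and its log2 ratio of submergence in 450 mM NaCl to water control upward; red points are at least 2-fold higher (2472), blue points at least 2-fold lower (4295), and dashed lines mark 2-fold. Blue points extend further from 0 than red ones, and the wedge at the left comes from the filter at RPKM 1.

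The share of transcripts past 2-fold varied with expression level. Level was taken as the mean of both libraries on the log2 scale, given back as RPKM. Below RPKM 1, 7.99% of 8143 transcripts were higher in submergence in salt and 15.9% were lower, but a transcript in that class must have 1 library at RPKM 1 or more and the other under 1, which selects unequal values. From RPKM 1 to 2, 3.24% of 20314 were higher and 5.41% lower, and from 2 to 5, 3.23% of 18505 were higher and 5.23% lower. The smallest shares of lower transcripts were found at RPKM 20 to 50, where 1.81% of 5022 were higher and 3.07% were lower.

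Among abundant transcripts the balance was more one-sided. From RPKM 50 to 100, 29 of 1556 were higher (1.86%) and 64 were lower (4.11%). From RPKM 100 to 500, 16 of 767 were higher (2.09%) and 54 were lower (7.04%). Above RPKM 500, none of 43 was higher by 2-fold and 3 were lower. With the level taken from the 3 libraries that do not enter the ratio, the class of RPKM 100 to 500 held 13 higher (1.84%) and 55 lower (7.78%) of 707 transcripts. With the level taken from the 2 libraries compared, the medians of the ratio lay between -0.02 and 0.07 in the classes from RPKM 1 upward. With the level from the other 3 libraries they lay between -0.02 and 0.05 from RPKM 1 to 500, and at -0.14 for the 33 transcripts above RPKM 500.

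Reads per transcript and the spread of the ratios both changed with level. From RPKM 1 to 2 the median transcript had 57 reads in submergence in salt and 46 in control. The standard deviation expected of its log2 ratio from counting was 0.29, beside an interquartile range of 0.68 over the class. From RPKM 100 to 500 the median reads were 15709 in submergence in salt and 11828 in control and the counting standard deviation was 0.02, beside an interquartile range of 0.62. The range was narrowest at RPKM 20 to 50, at 0.46. A standard deviation and an interquartile range are unlike measures and are only set side by side here. The counting value was also taken from reads without the 0.5 that the ratios carry.

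**Figure D2:**
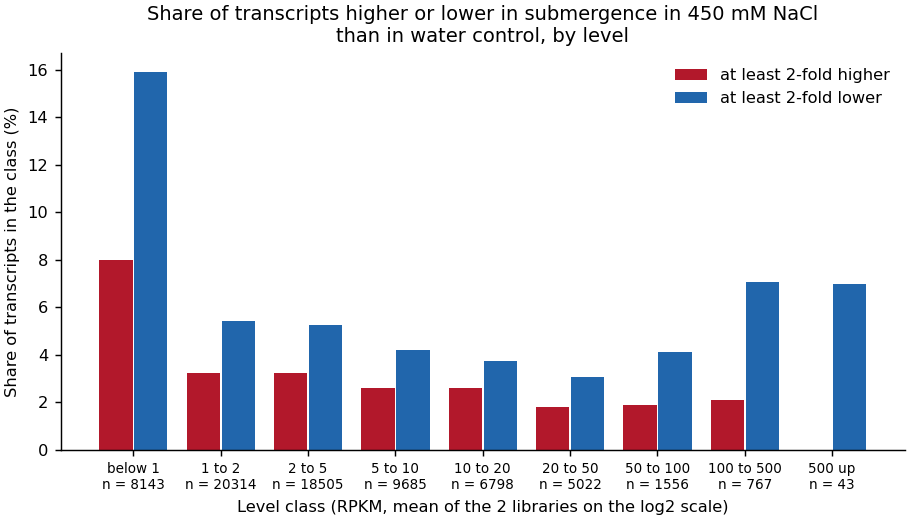
Bars give the percentage of transcripts in each level class (RPKM, mean of both libraries on the log2 scale, n under each class) that were at least 2-fold higher (red) or at least 2-fold lower (blue) in submergence in 450 mM NaCl than in water control. Lower transcripts made up the larger share in every class, and the gap was widest below RPKM 1 (7.99% and 15.9%) and in the classes from RPKM 100 upward.

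The share of summed RPKM held by each set differed between the libraries. The 2472 higher transcripts made up 3.54% of the summed RPKM in submergence in salt, 3.75% in submergence in water, 1.54% at 450 mM NaCl, 1.25% at 700 mM and 1.29% in the control. The 4295 lower transcripts made up 2.68% in submergence in salt, 1.72% in submergence in water, 8.99% at 450 mM NaCl, 10.94% at 700 mM and 8.24% in the control. The direction in the first and last library of each list is fixed by the choice of transcripts, and the other 3 libraries were not used in that choice beyond being above 0. Both sets were made of shorter transcripts, with a median length of 417.5 nt for the higher and 506 nt for the lower set against 650 nt for all transcripts used. Among transcripts reaching RPKM 10 in either library the medians were 688 nt (479 higher), 774 nt (849 lower) and 1159 nt (all 16025).

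Set beside the other treatments, the higher and lower transcripts tended to be displaced from the control in submergence in water as well, and less so in salt without submergence. Medians of the log2 ratio to control for the higher set were 1.20 in submergence in salt (interquartile range 1.09 to 1.42), 1.20 in submergence in water (0.59 to 1.80), 0.19 at 450 mM NaCl (-0.20 to 0.55) and 0.06 at 700 mM (-0.38 to 0.49). For the lower set they were -1.32 in submergence in salt (-1.62 to -1.13), -1.55 in submergence in water (-2.11 to -1.08), -0.07 at 450 mM NaCl (-0.47 to 0.19) and 0.21 at 700 mM (-0.26 to 0.56). Over all 70833 transcripts the medians were 0.02, 0.00, -0.11 and -0.13 in the same order of libraries. Every one of these medians is taken against the 1 control library, so a peculiarity of that library would enter all of them.

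Among the transcripts that reached RPKM 10 in submergence in salt or in the control, the 849 lower ones had median RPKM of 7.21 in submergence in salt, 4.57 in submergence in water, 24.99 at 450 mM NaCl, 29.7 at 700 mM and 22.7 in the control. The 479 higher ones had medians of 19.9, 19.5, 8.87, 6.43 and 7.70 in that order. The most frequent order of the 5 libraries in the lower set ran, from highest to lowest, 700 mM, 450 mM, control, submergence in salt, submergence in water, and it was seen in 1211 of 4295 transcripts (28.2%), against 7.7% of all transcripts used. In the higher set the most frequent order was submergence in water, submergence in salt, control, 450 mM, 700 mM. It was seen in 346 of 2472 transcripts (14.0%), and in 13.1% of all transcripts used. Each order contains the direction between submergence in salt and control by which its set was picked. Over all transcripts used, only 51.4% had submergence in salt above the control. The share of all transcripts is therefore not a like baseline for either set.

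Among the transcripts used, the combined treatment was less often the highest, and less often the lowest, of the 5 libraries than submergence in water or 700 mM NaCl. It was more often the highest, and more often the lowest, than the control. Over all transcripts used it was the highest in 15.9% and the lowest in 10.1%. Submergence in water was the highest in 36.3% and the lowest in 30.9%, 450 mM NaCl in 11.5% and 19.7%, 700 mM NaCl in 21.8% and 32.8%, and the control in 14.4% and 6.5%. Depth differs between the libraries and widens the scatter of the shallower ones at low level. The deepest library was submergence in water and the shallowest was the control. Within the higher set, which was picked for a high value in submergence in salt, that library was the highest of the 4 treated ones for 1163 transcripts (47.0%) and submergence in water for 1182 (47.8%). Within the lower set submergence in salt was the lowest of the 4 for 1455 transcripts (33.9%) and submergence in water for 2581 (60.1%).

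The higher transcripts fell into unequal groups by their level in submergence in water. For 1846 of the 2472 (74.7%, against 92.4% of all transcripts used), submergence in salt and in water lay within 2-fold of each other, with median RPKM of 2.92 and 3.27 and 0.93 in the control. Another 213 (8.6%) were at least 2-fold below their value in submergence in water, with medians of 3.99 RPKM in submergence in salt, 10.7 in submergence in water, 0.83 at 450 mM NaCl, 0.84 at 700 mM and 1.14 in the control. The remaining 413 (16.7%) were at least 2-fold above submergence in water, with medians of 4.14, 1.115, 2.33, 2.17 and 1.32 RPKM in the same order. Over all transcripts used, 2.5% were at least 2-fold below and 5.1% at least 2-fold above submergence in water. The higher set was picked for a high value in submergence in salt, so the shares of all transcripts are not a like baseline for it. For 109 of the higher transcripts (4.4%) submergence in salt was at least 2-fold above each of the other 4 libraries. Any such transcript is in the higher set by definition, and the same 109 are 0.2% of all transcripts used. Their median was 5.61 RPKM in submergence in salt against 1.78 in submergence in water, 1.89 at 450 mM, 1.29 at 700 mM and 1.45 in the control.

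Among the lower transcripts, 3531 of 4295 (82.2%) lay within 2-fold of submergence in water, against 92.4% of all transcripts used, with medians of 0.68 RPKM in submergence in salt, 0.66 in submergence in water and 2.66 in the control. A further 547 (12.7%, against 5.1% of all) were at least 2-fold above submergence in water. Their medians were 3.86 RPKM in submergence in salt, 0.96 in submergence in water, 16.2 at 450 mM NaCl, 20.2 at 700 mM and 13.3 in the control, the highest control level of the groups named here. The other 217 (5.1%, against 2.5% of all) were at least 2-fold below submergence in water, with medians of 0.52, 2.45, 1.05, 1.14 and 2.71 RPKM in that order. For 37 of the lower transcripts (0.9%) submergence in salt was at least 2-fold below each of the other 4 libraries. Any such transcript is in the lower set by definition, and the same 37 are 0.1% of all transcripts used. The lower set was picked for a low value in submergence in salt, so the shares of all transcripts are not a like baseline for it.

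Well-expressed transcripts were those at RPKM 10 or more in submergence in salt or in the control. Those with the highest ratios were sorted into a pair of patterns by which library was highest, and profiles within a pattern differed. In 4 of the 12 with the highest ratios, submergence in water stood above submergence in salt, and both stood above the 3 libraries that were not submerged. In the other 8, submergence in salt was the highest of the 5 libraries, and in all 8 the value at 450 mM NaCl also exceeded the control.

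The fold differences given for single transcripts are ratios of RPKM as deposited, without the 0.5 that was added for ranking. Ranked with that addition, the first pattern held the highest ratio of the 70833. Pc_TC046817 (240 nt) had 38.3 RPKM in submergence in salt, 102 in submergence in water, 0.91 at 450 mM NaCl, 0.93 at 700 mM and 2.28 in the control, which made it 16.8-fold higher in submergence in salt than in control (95% counting interval 11.7 to 24.9). Pc_TC089189 (278 nt) had 11.1 RPKM in submergence in salt, 26.4 in submergence in water, 0.60 at 450 mM, 0.62 at 700 mM and 0.76 in the control, a 14.5-fold difference (8.14 to 28.5) that rests on 230 and 12 reads. Pc_TC023972 (839 nt) had 11.3 RPKM in submergence in salt, 36.4 in submergence in water, 0.50 at 450 mM, 1.12 at 700 mM and 1.45 in the control, and was 7.78-fold higher (6.07 to 10.1). In these 3 transcripts both salt libraries without submergence lay below the control, in Pc_TC089189 by no more than 10 reads in each against 12. Pc_TC036242 (682 nt) differed from them in the salt libraries: it had 11.8 RPKM in submergence in salt, 15.4 in submergence in water, 2.67 at 450 mM, 3.76 at 700 mM and 1.14 in the control, and its ratio to control was 10.4 (7.65 to 14.5).

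The second pattern included the most abundant of the 12. Pc_TC027108 (838 nt) had 108 RPKM in submergence in salt, 17.3 in submergence in water, 34.1 at 450 mM NaCl, 26.5 at 700 mM and 16.9 in the control, so it was 6.41-fold higher in submergence in salt than in control (5.96 to 6.91) while submergence in water and control nearly coincided. Its neighbour by assembly number, Pc_TC027107 (870 nt), had 72.5, 11.1, 24.3, 18.1 and 10.7 RPKM in the same order, a 6.81-fold difference (6.22 to 7.46). Neighbouring numbers can be copies or variants of 1 gene that share reads, which was not tested, and the pair may therefore not be independent. Pc_TC064636 (371 nt) had nearly the same profile, with 55.8 RPKM in submergence in salt, 8.26 in submergence in water, 17.2 at 450 mM, 11.3 at 700 mM and 8.19 in the control.

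A further pair of this pattern stood lower in submergence in water than in the control. Pc_TC035198 (1246 nt) had 56.5 RPKM in submergence in salt, 3.42 in submergence in water, 18.6 at 450 mM NaCl, 13.1 at 700 mM and 9.03 in the control, 6.25-fold higher in submergence in salt than in control (5.76 to 6.80) from 5266 and 637 reads. Pc_TC088632 (275 nt) had 41.7 RPKM in submergence in salt, 2.39 in submergence in water, 10.3 at 450 mM, 8.84 at 700 mM and 5.33 in the control, a 7.83-fold difference (6.24 to 9.93). In both, the value in submergence in salt exceeded that at 450 mM without submergence, although submergence in water was the lowest of the 5 libraries. Pc_TC097219 (434 nt) had 31.2 RPKM in submergence in salt, 4.90 in submergence in water, 8.44 at 450 mM, 4.85 at 700 mM and 4.27 in the control.

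The last 2 of the 12 had their lowest value at 700 mM NaCl, and in both submergence in water stood above 450 mM NaCl and above the control. Pc_TC012730 (987 nt) had 11.7 RPKM in submergence in salt, 3.58 in submergence in water, 3.05 at 450 mM, 1.13 at 700 mM and 1.43 in the control, and was 8.15-fold higher in submergence in salt than in control (6.48 to 10.4). Pc_TC104992 (235 nt) had 10.1, 7.65, 2.56, 0.87 and 1.20 RPKM in the same order, from 178 reads in submergence in salt and 16 in the control. Without the limit of RPKM 10, 1 other transcript entered the 4 highest ratios. This was Pc_TC061127 (835 nt), with 7.09 RPKM in submergence in salt, 18.3 in submergence in water, 0.14 at 450 mM, 0.76 at 700 mM and 0.11 in the control, 67.0-fold higher in submergence in salt than in control (28.5 to 207), though only 5 reads stood behind the control value. With 0.1 added in place of 0.5, its log2 ratio was 5.13 and exceeded the 4.01 of Pc_TC046817.

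**Figure D3:**
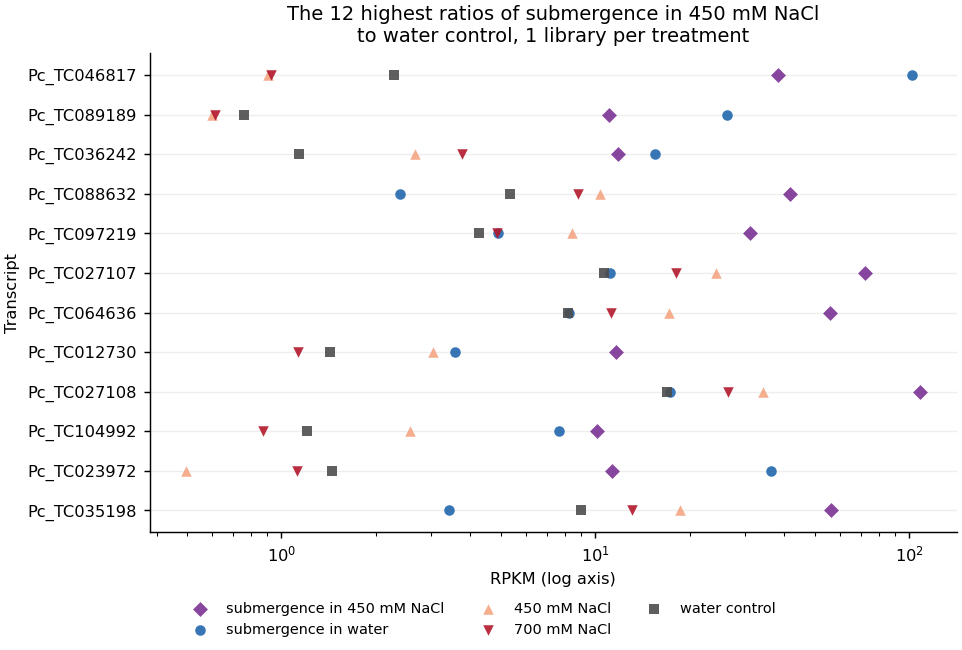
RPKM (log axis) of the 12 transcripts with the highest ratio of submergence in 450 mM NaCl to water control among those reaching RPKM 10 in either, 1 point per library. In 8 of the 12 the diamond for submergence in salt is the rightmost point, and in the other 4 the circle for submergence in water lies to its right.

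The lowest ratios were larger in size and more alike in pattern. In 10 of the 12 well-expressed transcripts with the lowest ratios, both submerged libraries stood below all 3 libraries that were not submerged. In 9 of these 10 submergence in water was the lowest of the 5. In 6 of the 12 the libraries ran from highest to lowest in the order 700 mM, 450 mM, control, submergence in salt, submergence in water.

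Abundant members of this pattern were depleted in submergence in salt but remained well above their value in submergence in water. Pc_TC065510 (872 nt) had 20.2 RPKM in submergence in salt, 1.495 in submergence in water, 336 at 450 mM NaCl, 474 at 700 mM and 276 in the control, 13.7-fold lower in submergence in salt than in control (12.9 to 14.5). Pc_TC094501 (445 nt) had 15.4 RPKM in submergence in salt, 0.40 in submergence in water, 206 at 450 mM, 249 at 700 mM and 205 in the control, 13.4-fold lower (12.2 to 14.7). Pc_TC093161 (230 nt) had 12.9 RPKM in submergence in salt, 2.59 in submergence in water, 145 at 450 mM, 158 at 700 mM and 162 in the control, 12.6-fold lower (10.96 to 14.5). These 3 were among the transcripts that control plants held at more than RPKM 100.

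A pair of close but not successive numbers was also found here. Pc_TC037675 (825 nt) had 5.89 RPKM in submergence in salt, 0.20 in submergence in water, 88.6 at 450 mM NaCl, 174 at 700 mM and 78.6 in the control, and Pc_TC037673 (362 nt) had 1.48, 0.035, 32.6, 52.6 and 28.4 RPKM in the same order. Both were highest at 700 mM, and in submergence in water they were left with 13 reads and 1 read. Pc_TC018863 (1484 nt), the longest of the 12, stood at 0.88 RPKM in submergence in salt against 22.5 in the control, 25.5-fold lower (20.8 to 31.6) from 98 and 1890 reads.

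The remaining 4 of the 10 lay between 12.5 and 46.8 RPKM in the control. Pc_TC077835 (266 nt) had 2.11 RPKM in submergence in salt, 0.48 in submergence in water, 38.5 at 450 mM NaCl, 49.2 at 700 mM and 46.8 in the control, 22.2-fold lower in submergence in salt than in control (16.2 to 31.1). Pc_TC105779 (537 nt) had 1.09, 0.17, 30.4, 29.8 and 23.0 RPKM in the same order, and Pc_TC066979 (300 nt) had 1.96, 1.43, 50.1, 51.7 and 33.5 RPKM. Pc_TC084248 was the 1 member of the 10 that stood lower in submergence in salt than in water, at 0.40 and 0.63 RPKM, with 12.5 in the control. Its shortest solved length was 200 nt, which gave 6 reads in submergence in salt. At these reads the interval of its 31.3-fold difference ran from 14.0 to 86.7. Longer lengths with more reads fit the same values.

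In the remaining 2 of the 12, the control stood alone. Pc_TC137557 (726 nt), with the lowest ratio of the 70833 when 0.5 is added, had 1.01 RPKM in submergence in salt, 1.59 in submergence in water, 1.63 at 450 mM NaCl, 0.28 at 700 mM and 38.3 in the control, 37.9-fold lower in submergence in salt than in control (28.9 to 50.5). Pc_TC009944 (355 nt) had 1.09 RPKM in submergence in salt, 4.89 in submergence in water, 2.64 at 450 mM, 2.22 at 700 mM and 23.3 in the control. With 1 control library, a difference in these 2 transcripts between treatments and a peculiarity of that library cannot be told apart. Of the 70833 transcripts used, 209 had a control value at least 2-fold above each of submergence in water, 450 mM and 700 mM NaCl. Of these, 175 were among the 4295 lower transcripts (4.1%). The opposite, a control value at least 2-fold below each of those 3 libraries, was found for 29 transcripts, of which 24 were among the 2472 higher ones (1.0%). Without both kinds there were 2448 higher and 4120 lower transcripts at 2-fold. At 4-fold 90 were higher and 364 lower, against 96 and 439 with them. Part of the lower side at 4-fold thus rests on transcripts in which the 1 control library stood apart.

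**Figure D4:**
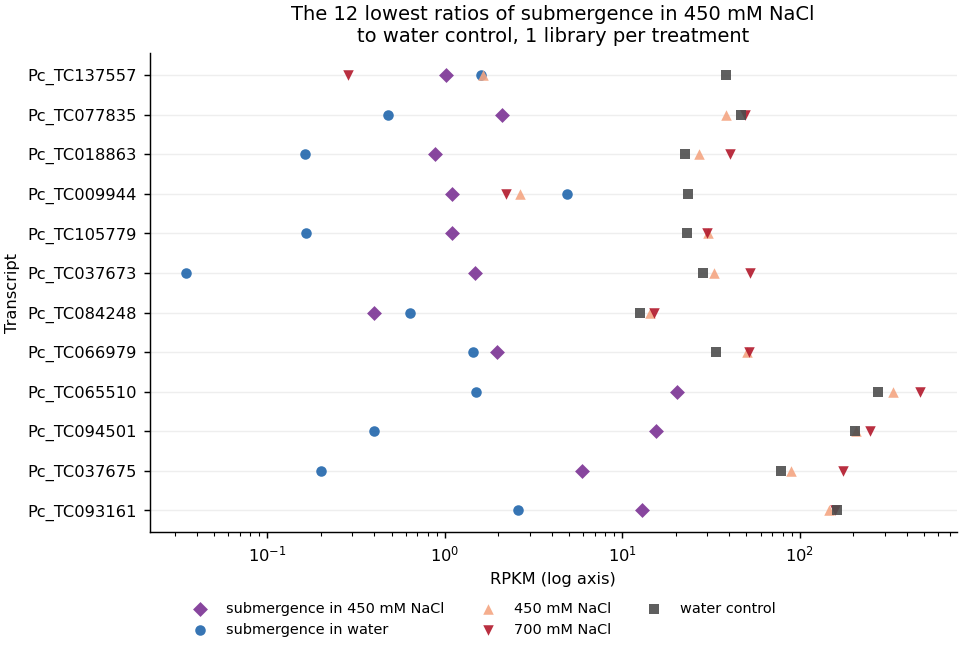
RPKM (log axis) of the 12 transcripts with the lowest ratio of submergence in 450 mM NaCl to water control among those reaching RPKM 10 in either, 1 point per library. In 10 of the 12 the diamond (submergence in salt) and circle (submergence in water) lie apart to the left of the other 3 symbols, and in Pc_TC137557 and Pc_TC009944 the square for the control lies alone to the right.

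In absolute terms the largest gains in RPKM came from very abundant transcripts with small ratios. Only 1 of the 6 largest gains reached 2-fold: Pc_TC087014 (714 nt) had 754 RPKM in submergence in salt, 596 in submergence in water, 306 at 450 mM NaCl, 214 at 700 mM and 204 in the control, 3.70-fold higher in submergence in salt than in control (3.61 to 3.79). In the other 5 submergence in water was the highest library and submergence in salt the second. Pc_TC038631 (881 nt), the most abundant transcript in submergence in salt, had 4297 RPKM there, 6700 in submergence in water, 3272 at 450 mM, 2073 at 700 mM and 3139 in the control, a ratio to control of 1.37 (1.36 to 1.38). Pc_TC038633 (565 nt), close to it by number but not the next, had 1320.3, 2152, 565, 428 and 713 RPKM in the same order, a ratio of 1.85. The ratios of Pc_TC001241, Pc_TC012048 and Pc_TC004232 were 1.37, 1.505 and 1.34.

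The largest losses in RPKM included more transcripts past 2-fold, 4 of 6. Pc_TC117680 (498 nt) had 1068 RPKM in submergence in salt, 784 in submergence in water, 3332 at 450 mM NaCl, 2348 at 700 mM and 2691 in the control, 2.52-fold lower in submergence in salt than in control (2.49 to 2.55). Pc_TC100998 (390 nt) had 442 RPKM in submergence in salt, 92.9 in submergence in water, 1935 at 450 mM, 2744 at 700 mM and 1478 in the control. Pc_TC004117 (1390 nt) had 150.1 RPKM in submergence in salt, 57.7 in submergence in water, 1164 at 450 mM, 1405 at 700 mM and 983 in the control, 6.55-fold lower (6.44 to 6.66). These and Pc_TC000772, at 226 RPKM in submergence in salt and 846 in the control, repeated the order of both submerged libraries below the other 3. Pc_TC000708 had 1348 RPKM in submergence in salt and 2096 in the control. Pc_TC035092 (2875 nt) departed from the pattern, with 847 RPKM in submergence in salt, 1078 in submergence in water, 595 at 450 mM, 3904 at 700 mM and 1532 in the control.

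The other 3 of the 6 most abundant transcripts in submergence in salt lay within 2-fold of the control. Pc_TC029576 (539 nt), the second most abundant in submergence in salt, had 2244 RPKM there, 2548 in submergence in water, 2017 at 450 mM NaCl, 2029 at 700 mM and 2292 in the control, a ratio to control of 0.98. Pc_TC012156 had a ratio of 1.21 (1990.4 RPKM in submergence in salt and 1652 in the control) and Pc_TC001301 a ratio of 0.77 (1783 and 2323).

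Where the combined treatment lay between its components was described in transcripts chosen by the difference between those components. There were 4203 transcripts above 0 in all libraries, at RPKM 1 or more at 450 mM NaCl or in submergence in water, and at least 4-fold apart between these 2, so the combined library and the control entered the choice only by being above 0. Position was set to 0 at the value of 450 mM NaCl and to 1 at that of submergence in water, on the log2(RPKM + 0.5) scale. Submergence in salt had a median position of 0.58 (interquartile range 0.45 to 0.69), and it lay between 0 and 1 in 4101 of the 4203 (97.6%). Beyond the value at 450 mM NaCl lay 69 and beyond submergence in water lay 33.

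Because the pair was chosen for being far apart, another library can fall between by that choice, and the other libraries were therefore placed on the same scale. The control had a median position of 0.19 (0.09 to 0.31) and lay between in 91.2%, and 700 mM NaCl had a median of -0.06 (-0.17 to 0.06) and lay between in 36.0%. Submergence in salt thus stood nearer to submergence in water than the control did. Its median was 0.60 (0.50 to 0.68) for the 1982 transcripts higher in submergence in water than at 450 mM NaCl, and 0.57 (0.41 to 0.70) for the 2221 lower ones. The median varied little with level, from 0.58 to 0.60 over 5 classes, and in the 151 transcripts above RPKM 50 all lay between. On the linear RPKM scale the directions separated, with medians of 0.39 (0.29 to 0.48) for the higher and 0.78 (0.62 to 0.87) for the lower transcripts.

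**Figure D5:**
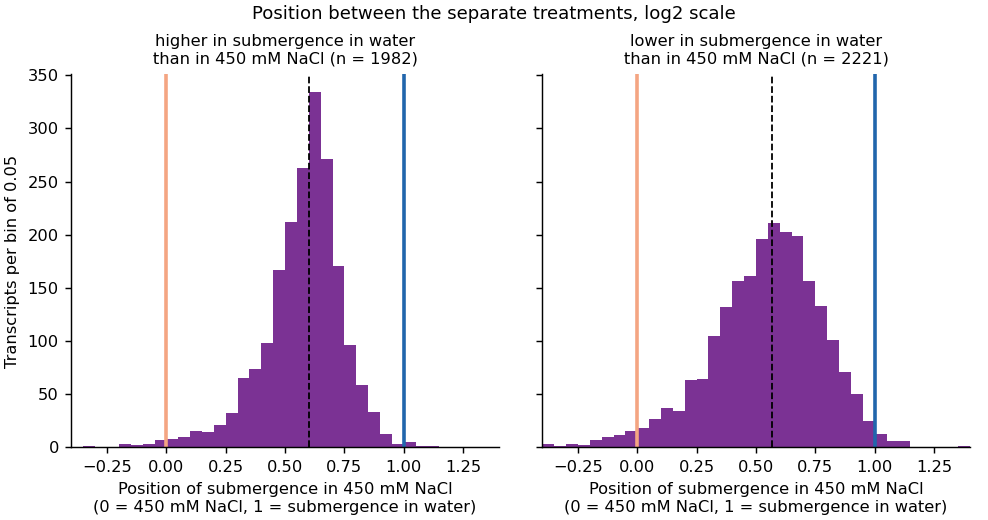
Position of submergence in 450 mM NaCl on the log2(RPKM + 0.5) scale between 450 mM NaCl (0, orange line) and submergence in water (1, blue line), for transcripts at least 4-fold apart between these, in bins of 0.05 with values beyond the axis placed in the end bins. The dashed lines mark the medians, 0.60 for the 1982 transcripts higher in submergence in water (left) and 0.57 for the 2221 lower ones (right), and few transcripts fall outside 0 to 1.

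Transcripts with successive assembly numbers were called alike more often than transcripts in general. Of 1222 higher transcripts whose next number was also used, the next was higher in 79 (6.5%, against 3.49% of all) and lower in 70 (5.73%, against 6.06% of all). Of 2412 lower transcripts with the next number used, the next was lower in 257 (10.7%, against 6.06%) and higher in 81 (3.36%, against 3.49%). Several numbers can belong to 1 gene, so counts of transcripts are not counts of genes.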

How the data were processed

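The deposited values were RPKM, calculated by the authors for each transcript after filtering reads with NGS QC Toolkit and mapping them to assembled *Porteresia* transcripts, per the series text and the labels; libraries came from an Illumina mRNA kit, per the labels' protocols. The mapper, versions and treatment of multiply mapping reads were not stated there. Read totals, lengths (at least 200 nt) and whole reads were solved from the steps of RPKM (tolerance 0.003 reads) for 152263 transcripts, with 99.9% of nonzero values no more than 0.001 reads from a whole number, a closeness that the tolerance partly sets. The shortest length that fits was taken, so where a length and its reads share a factor, longer solutions fit as well. On simulated data 98.8% of 32132 transcripts above 0 in 5 libraries were recovered exactly. Among all 39973 simulated transcripts above 0 in any library the share was 97.7%. Reads served only for depth, lengths and exact Clopper-Pearson intervals. Calls and ranks used the ratio of RPKM plus 0.5, and printed folds the ratio of RPKM as deposited. Calls were by size alone. Named transcripts were the 12 highest and 12 lowest ratios at RPKM 10 or more, the 4 highest and 4 lowest at any level, the 6 largest gains and losses, the 6 most abundant in submergence in salt and the 2 most abundant of those at 0 in the control. Alternatives were other pseudocounts, filters, scalings, levels and fold limits, and calls limited to intervals excluding 1, which left out no call. Leaving out transcripts with a control standing apart and the linear position were added after seeing the data. Members, lists and rules were chosen with earlier results of these data known. Python 3.11.15, pandas 2.3.3, NumPy 2.4.6, SciPy 1.17.1, numba 0.67.0 and Matplotlib 3.10.9 were used.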

Additional observations from a re-analysis of the deposited data

Results flagged for a closer look

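Outside the transcripts compared, 47 had RPKM of at least 1 in submergence in 450 mM NaCl and 0 in the water control, a signal in data that the filter leaves out. Their median was 1.28 RPKM in submergence in salt, and 3 of the 47 were at 0 in all 4 other libraries. The most abundant was Pc_TC075987, with 1.78 RPKM in submergence in salt and 0 in the other 4 libraries. Its shortest solved length was 210 nt, with 28 reads, but longer lengths with more reads fit the same values. At 28 reads, Pc_TC075987 was at least 7.06-fold higher than in control if the control held no more than 3 reads. That is the 1-sided 95% limit for a count of 0. The exact 95% interval, which has 2 sides, starts lower, at 5.37. Pc_TC070187 had 1.77 RPKM in submergence in salt, 1.78 in submergence in water, 2.48 at 450 mM NaCl, 0 at 700 mM and 0 in the control. Its shortest solved length was 256 nt, with 34 reads in submergence in salt, and longer ones fit here too. At 34 reads, Pc_TC070187 was at least 8.57-fold higher than in control by the same limit (interval from 6.60). In the opposite direction, 410 transcripts were at 0 in submergence in salt with RPKM of at least 1 in the control, at a median of 1.497 RPKM there and a highest value of 30.4, and 253 of them were also at 0 in the other 3 treated libraries.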

How the results depend on the processing

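With 1 library per treatment, replicate error is unknown and no library could be left out. No paired analysis was possible because each group has 1 sample and the labels give no replicate numbers. Lower transcripts outnumbered higher ones under every setting run. The pseudocount moved the counts: higher and lower transcripts at 2-fold were 4327 and 6584 with 0.1 and 1233 and 2571 with 1, and at 4-fold 473 and 1374 with 0.1 and 50 and 255 with 1. With RPKM of at least 5 required, 878 were higher, 1525 lower and 291 lower at 4-fold among 26774 transcripts. Without the requirement of RPKM above 0 in all 5 libraries, 72288 transcripts were compared, and 111 were higher and 732 lower at 4-fold. The transcripts this let in included 410 at 0 in submergence in salt and 47 at 0 in the control. The requirement thus left out more of the lower than of the higher side. The median log2 ratio of 0.017 was 0.061 with RPKM of at least 5, -0.017 with no filter, 0.042 after median-of-ratios scaling and 0.026 with equal sums of RPKM. Median-of-ratios scaling, with a log2 factor of -0.03, gave 39.2% higher among the calls, against 36.5% as deposited. The median position of 0.584 was 0.551 on the linear scale and 0.58 to 0.588 under the other settings. With level from the other 3 libraries, 3.58% were higher at RPKM 1 to 2. Of 40 named transcripts, none crossed the 2-fold limit or changed direction past it under other pseudocounts or scalings.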
